A study of Mus musculus with 15 samples.

Results

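Gfra3, Asic5, Plet1 and Scgn are 4 protein-coding genes, none of them a hormone, described here in the ileum of adult mice with an inducible deletion of the transcription factor gene Rfx6. They were chosen from the readout itself, as genes lower in mutant than in control libraries at 8 days or at 3 months after tamoxifen. All 4 were found among the 37620 gene identifiers of the deposited count tables, with an entry in the columns of all 15 libraries. Their mutant and control values are therefore given as a description, with no test. The working name of the set, genes lost together with the endocrine hormones, held to a different degree for each gene. Asic5 had 0 counts in every library labelled mutant, Gfra3 and Scgn were reduced to a part of their control level, and Plet1 was not lower on average at 8 days.

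Mutant mice were Rfx6f/f with Vilin-CreERT2, the labels' spelling of a tamoxifen-inducible recombinase under the promoter of Villin, a gene of the intestinal epithelium. Control mice lacked the recombinase. At 8 days there were 3 controls, each Rfx6f/f, and 4 mutants, and at 3 months there were 4 controls, of which 2 were Rfx6f/f and 2 were Rfx6f/+, and 4 mutants. Per the labels, the adult mice of all groups were gavaged with 10 mg tamoxifen, 2 times a day on alternate days over 5 days, and age, sex and strain are not given there. Replicate numbers only name the libraries of a group, in the order of their accessions, and are not from the labels. The labels do not say that each library came from its own mouse, so the errors and p-values given here measure the spread between libraries, which may in part be technical.

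Library totals ran from 30452485 to 54468586 counts at 8 days and from 26078462 to 36270306 counts at 3 months. Levels are CPM, read counts scaled to a library total of 1000000 with TMM (trimmed mean of M values) within each time point. Before TMM scaling, a floor of 3 counts corresponded to 0.0551 to 0.0985 CPM at 8 days and to 0.0827 to 0.1150 CPM at 3 months. With TMM scaling, its mean over the mutant libraries was 0.0745 CPM at 8 days and 0.0954 CPM at 3 months, which the limits for Asic5 use. For Rfx6 itself, the 8-day controls had 50, 50 and 84 counts and the mutants of that time 80, 105, 63 and 44. The 3-month controls had 51, 52, 38 and 43 counts, and the mutants of that time 106, 72, 89 and 65. By edgeR's quasi-likelihood test, the difference in Rfx6 was 0.19 on the log2 scale at 8 days (SE 0.18, adjusted p = 0.867) and 0.72 at 3 months (SE 0.17, adjusted p = 0.0347). A fall of Rfx6 was thus not seen in these counts, which cover the whole gene; the deleted part was not measured on its own, and the groups are called libraries labelled mutant. At 8 days, control replicate 3 and mutant replicate 4 held RNA of large-intestine genes, and the Plet1 values that rest on them are given with and without them. Mutant replicate 1 of that time had a lower B cell marker sum, 17.7 CPM, than the other mutants, at 108, 224 and 243 CPM.

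Enteroendocrine cells are scattered hormone-secreting cells of the gut epithelium, and Rfx6 belongs to the regulatory factor X family and acts in the differentiation of endocrine cells of gut and pancreas. Enteroendocrine cells fall into peptidergic types, which make hormones such as glucagon-like peptides, neurotensin, peptide YY or cholecystokinin, and enterochromaffin cells, which make serotonin. Gfra3 encodes a cell-surface co-receptor, anchored in the membrane by a lipid, that binds artemin of the GDNF (glial cell line-derived neurotrophic factor) family and signals through the receptor tyrosine kinase Ret. Asic5 encodes an ion channel of the acid-sensing and epithelial sodium channel family, also known as the bile acid-sensitive ion channel. Plet1 encodes a membrane-anchored surface protein of epithelial progenitors and of some dendritic cells, and Scgn encodes secretagogin, a calcium-binding protein with EF-hand motifs found in neuroendocrine cells.

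The stretches of 250 bases before the annotated start are printed for 3 of the genes, and the sequences let a reader see what each promoter holds. Gfra3 was left out of both the printed stretches and the motif matches given here, so nothing is said about its promoter. They are the sense strand of the RefSeq mouse assembly GRCm38.p6, at chr3:81996672-81996921 on the plus strand for Asic5, chr9:50494275-50494524 on the plus strand for Plet1 and chr13:23991215-23991464 on the minus strand for Scgn. Capitals mark the matches to searched motifs.
Asic5: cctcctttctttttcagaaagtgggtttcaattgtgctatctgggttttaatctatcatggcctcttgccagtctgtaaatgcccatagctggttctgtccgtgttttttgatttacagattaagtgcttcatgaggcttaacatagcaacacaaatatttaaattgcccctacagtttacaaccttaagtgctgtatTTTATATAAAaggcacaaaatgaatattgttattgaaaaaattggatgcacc
Plet1: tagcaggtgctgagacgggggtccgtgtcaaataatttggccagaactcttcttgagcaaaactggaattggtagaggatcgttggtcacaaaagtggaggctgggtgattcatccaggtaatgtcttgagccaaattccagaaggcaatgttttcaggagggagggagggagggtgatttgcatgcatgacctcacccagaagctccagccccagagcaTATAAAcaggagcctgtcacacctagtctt
Scgn: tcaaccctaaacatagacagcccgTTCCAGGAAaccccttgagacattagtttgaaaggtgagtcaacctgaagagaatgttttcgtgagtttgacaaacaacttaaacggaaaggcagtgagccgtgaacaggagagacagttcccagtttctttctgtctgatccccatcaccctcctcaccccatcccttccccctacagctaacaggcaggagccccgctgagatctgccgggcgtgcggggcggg
The motifs searched on both strands, from 250 bases before to 50 bases after the start, were GTTGCC and GTTACC, short cores of regulatory factor X sites, CAGATG, an E-box, TAATTA, a homeobox core, TATAAA, the TATA box, and TTCNNNGAA, the interferon-gamma activated element. Asic5 held TATAAA at -48 and its reverse complement at -52, which overlap, and Plet1 held TATAAA at -30, where a TATA box is usually placed. Scgn held TTCCAGGAA at -226 and GTTGCC at 19 bases after the start, outside the printed stretch. Asic5 and Plet1 had no match to the letters of the other motifs in these windows. Of 32851 mouse windows of 300 bases, 13.6% held TATAAA, 8.3% TTCNNNGAA, 12.5% GTTGCC, 7.2% GTTACC, 17.2% CAGATG and 5.3% TAATTA. The GC content was 35.6% for Asic5, 50.0% for Plet1 and 53.2% for Scgn.

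Gfra3 (ENSMUSG00000024366), the artemin co-receptor, was expressed at a low level and kept 32.1% of its control mean at 8 days and 40.6% at 3 months in the mutants. At 8 days the controls had 2.05, 2.36 and 2.60 CPM, from 64, 87 and 141 counts, and the libraries labelled mutant had 0.677, 0.920, 0.595 and 0.810 CPM, from 24 to 47 counts. The lowest control thus lay above the highest mutant library. At 3 months the controls had 1.70, 2.25, 1.28 and 2.18 CPM and the mutants 0.799, 0.658, 1.12 and 0.426 CPM. The groups again did not overlap, although the highest mutant, replicate 3, came near the lowest control, which was an Rfx6f/+ library. The group means were 2.34 ± 0.276 (SD, n = 3) against 0.750 ± 0.144 CPM (SD, n = 4) at 8 days and 1.85 ± 0.453 against 0.752 ± 0.292 CPM (SD, n = 4 each) at 3 months. The log2 fold change was -1.64 (SE 0.20) at 8 days and -1.28 (SE 0.30) at 3 months. Both mutant means lay at the same level within their SD, whereas the control means differed by 0.487 CPM with overlapping ranges.

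Asic5 (ENSMUSG00000028008), the bile acid-sensitive channel, was the least abundant of the 4 genes and was at 0 counts throughout the 8 libraries labelled mutant. The controls had 7, 17 and 12 counts at 8 days, or 0.224, 0.462 and 0.222 CPM. At 3 months the controls had 10, 11, 10 and 13 counts, or 0.348, 0.339, 0.387 and 0.457 CPM. Every control library was therefore above every mutant library, but on 7 to 17 counts. Control means were 0.303 ± 0.138 CPM (SD, n = 3) and 0.383 ± 0.0537 CPM (SD, n = 4). Set against a floor of 3 counts per library, Asic5 was at least 4.06-fold lower in the mutants at 8 days and at least 4.01-fold lower at 3 months. That floor allows up to 24.6% and 24.9% of the control mean to be left, so a complete loss is not measurable at this depth. At 8 days Asic5 fell below the filter on low counts that the fits across all genes used. In bulk RNA, fewer cells of a type and less RNA per cell cannot be told apart, which holds for each of the 4 genes.

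Scgn (ENSMUSG00000021337), the calcium-binding protein secretagogin, had a smaller reduction than Gfra3 and Asic5, of similar size at both times. The controls had 2.95, 3.99 and 3.90 CPM at 8 days and the mutants 1.83, 3.11, 1.93 and 1.94 CPM. Mutant replicate 2, at 159 counts, lay above the lowest control, so these groups overlapped. At 3 months the controls had 3.10, 3.02, 3.37 and 4.01 CPM and the mutants 2.08, 2.30, 1.95 and 1.88 CPM. Here the groups were apart, with 87 to 114 counts in the controls and 53 to 73 in the mutants. Scgn kept 61.0% of its control mean at 8 days, with means of 3.61 ± 0.576 (SD, n = 3) and 2.20 ± 0.607 CPM (SD, n = 4), and 60.9% at 3 months, with 3.37 ± 0.449 and 2.05 ± 0.184 CPM (SD, n = 4 each). The log2 fold change was -0.71 at both times, with an SE of 0.22 at 8 days and 0.14 at 3 months.

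Plet1 (ENSMUSG00000032068), the progenitor and dendritic cell surface protein, behaved unlike the other genes. At 8 days it had 41, 59 and 335 counts in the controls, or 1.31, 1.60 and 6.18 CPM, and 58, 67, 51 and 674 counts in the mutants, or 1.31, 1.31, 1.26 and 21.8 CPM. The 3 other mutants lay at or just below the lowest control, and the single high library of each group set its mean. The means were 3.03 ± 2.73 CPM (SD, n = 3) for controls and 6.43 ± 10.3 CPM (SD, n = 4) for mutants, and the log2 fold change of 1.04 (SE 1.13) pointed upward. Without mutant replicate 4 it was -1.25, without control replicate 3 it was 2.12, and without both it was -0.17. Leaving out both gave means of 1.46 ± 0.204 CPM (SD, n = 2) and 1.29 ± 0.0263 CPM (SD, n = 3), with 88.7% of the control mean left in place of 212%.

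At 3 months the Plet1 controls stood at 112, 177, 135 and 9.00 CPM, from 3209, 5736, 3473 and 256 counts, and the mutants at 1.47, 2.86, 2.73 and 1.85 CPM, from 46 to 102 counts. Every control was above every mutant, yet the highest control was 19.6 times the lowest, which was replicate 4, an Rfx6f/f library. Means were 108 ± 71.3 and 2.23 ± 0.677 CPM (SD, n = 4 each), which left 2.06% of the control mean, and the log2 fold change was -5.59 (SE 0.82). The mutant mean at 3 months lay within the SD of the control mean at 8 days with all 3 controls, and above the mean of 1.46 ± 0.204 CPM that remains without control replicate 3. Of the exon bases of Plet1, 261 are shared with the antisense gene Plet1os on the opposite strand, and since the sources used here do not state whether reads were counted by strand, reads of both genes cannot be told apart there.

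**Figure D1:**
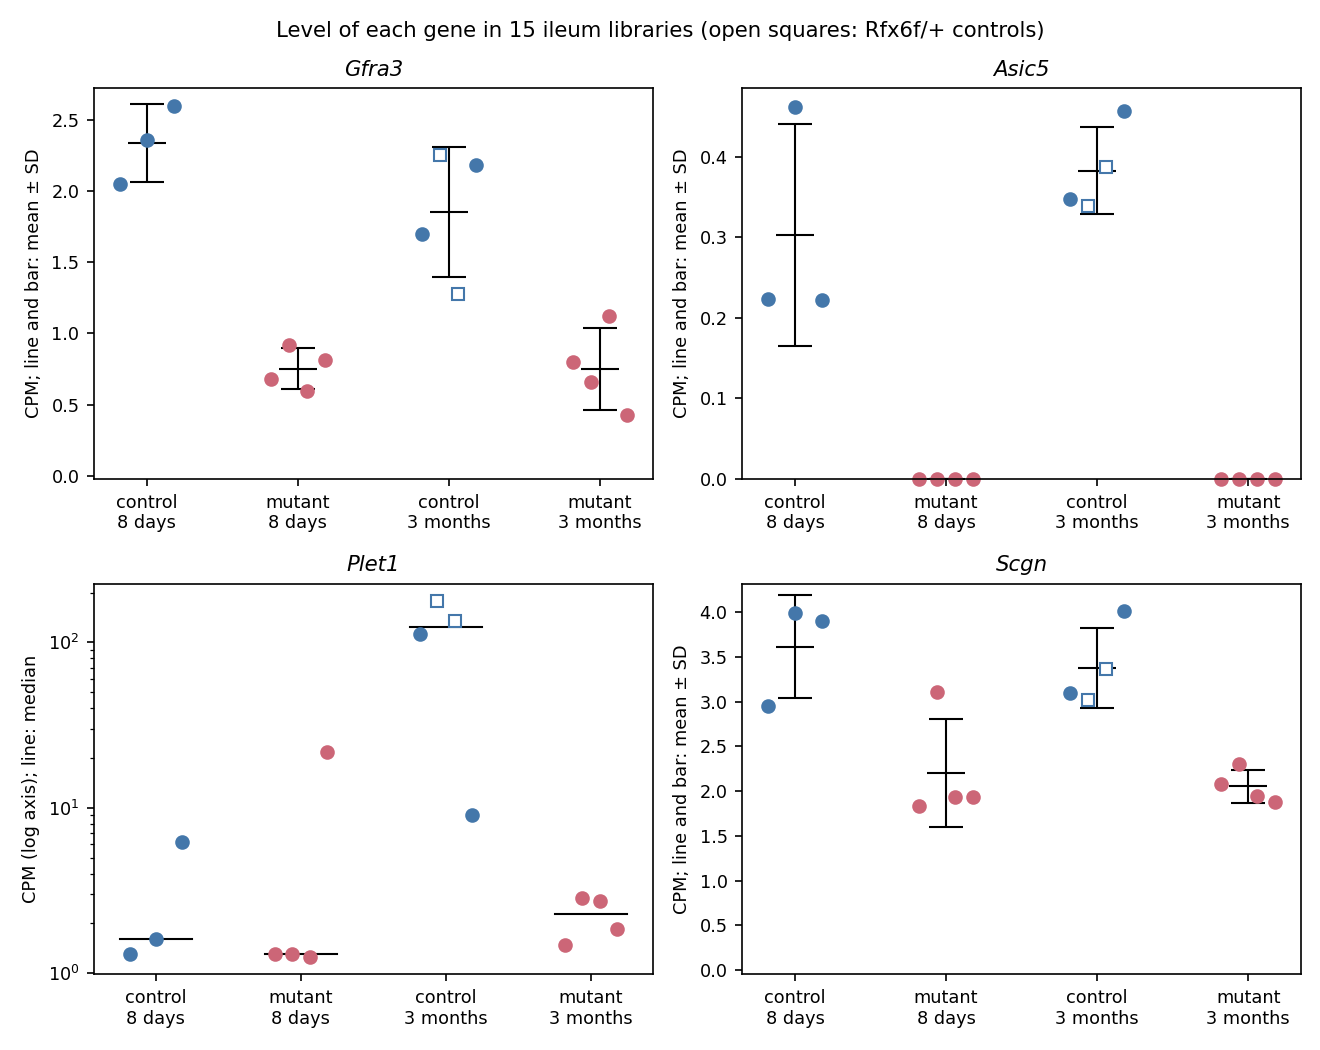
Level of each gene in every library, in CPM (linear axes from 0, but a log axis for Plet1), by group, with controls in blue, mutants in red and Rfx6f/+ controls as open squares; lines and bars are mean ± SD, or the median for Plet1. Asic5 is at 0 in all 8 mutant libraries, Gfra3 is apart at both times, and Plet1 has 1 high library in each 8-day group and 1 low control, at 9.00 CPM, at 3 months.

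Counted together, 2 of the 4 genes, Gfra3 and Asic5, had every mutant library below every control at 8 days, and 4 of 4 did at 3 months. Among the genes that passed the filter on low counts, that pattern was met by 3.91% of 17493 at 8 days, a set that does not hold Asic5, and by 9.61% of 17085 at 3 months. The genes were chosen on these values, so nothing further is read from the counts.

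Per kilobase of exon, the control levels at 8 days were 2.23 CPM for Scgn, 1.56 for Plet1, 1.17 for Gfra3 and 0.131 for Asic5. In the 3-month controls, the level per kilobase was 55.5 CPM for Plet1, 2.08 for Scgn, 0.928 for Gfra3 and 0.166 for Asic5. Without control replicate 3, the 8-day levels were 2.14 for Scgn, 1.11 for Gfra3, 0.749 for Plet1 and 0.149 for Asic5, so the place of Plet1 above Gfra3 at 8 days rested on that library.

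Set beside the hormones, the share of the control mean that Gfra3 kept, 32.1% and 40.6%, was close to that of Sst (somatostatin), at 32.7% and 39.9%. The share that Scgn kept, 61.0% and 60.9%, was nearer to Sct (secretin), at 57.0% and 51.2%. Of 9 peptide hormones, edgeR called 5 lower at 8 days (9 at an unadjusted p under 0.05, and 9 called by DESeq2) and 8 of 8 tested at 3 months, beside 0.0572% and 4.32% of all genes tested, and some kept far less. Gcg, which encodes the glucagon-like peptides, kept 5.61% at 8 days and 0.137% at 3 months, and Nts (neurotensin) kept 20.3% and 0.258%. The limit for Asic5, 24.6% and 24.9%, is too high to place it among these. The share of Cck (cholecystokinin) was 10.4% at 8 days and 36.0% at 3 months. Of 7 enterochromaffin genes, edgeR called 0 at 8 days (3 at an unadjusted p under 0.05, and 2 called by DESeq2) and 6 higher at 3 months, where 4.96% of all genes were called higher, Tac1 being at 93.8% of its control mean. Examples were Tph1, the rate-limiting enzyme of serotonin synthesis in the gut, at 158% and 365% and the granule protein gene Chga at 124% and 299%. The 4 genes were chosen as lower in mutants at 8 days or 3 months, so none could be higher at both times. Plet1 alone was above 100% at 8 days, at 212%, or at 88.7% without both libraries with high counts of large-intestine genes. These comparisons use the same control and mutant libraries for every gene, and no difference between genes was tested.

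**Figure D2:**
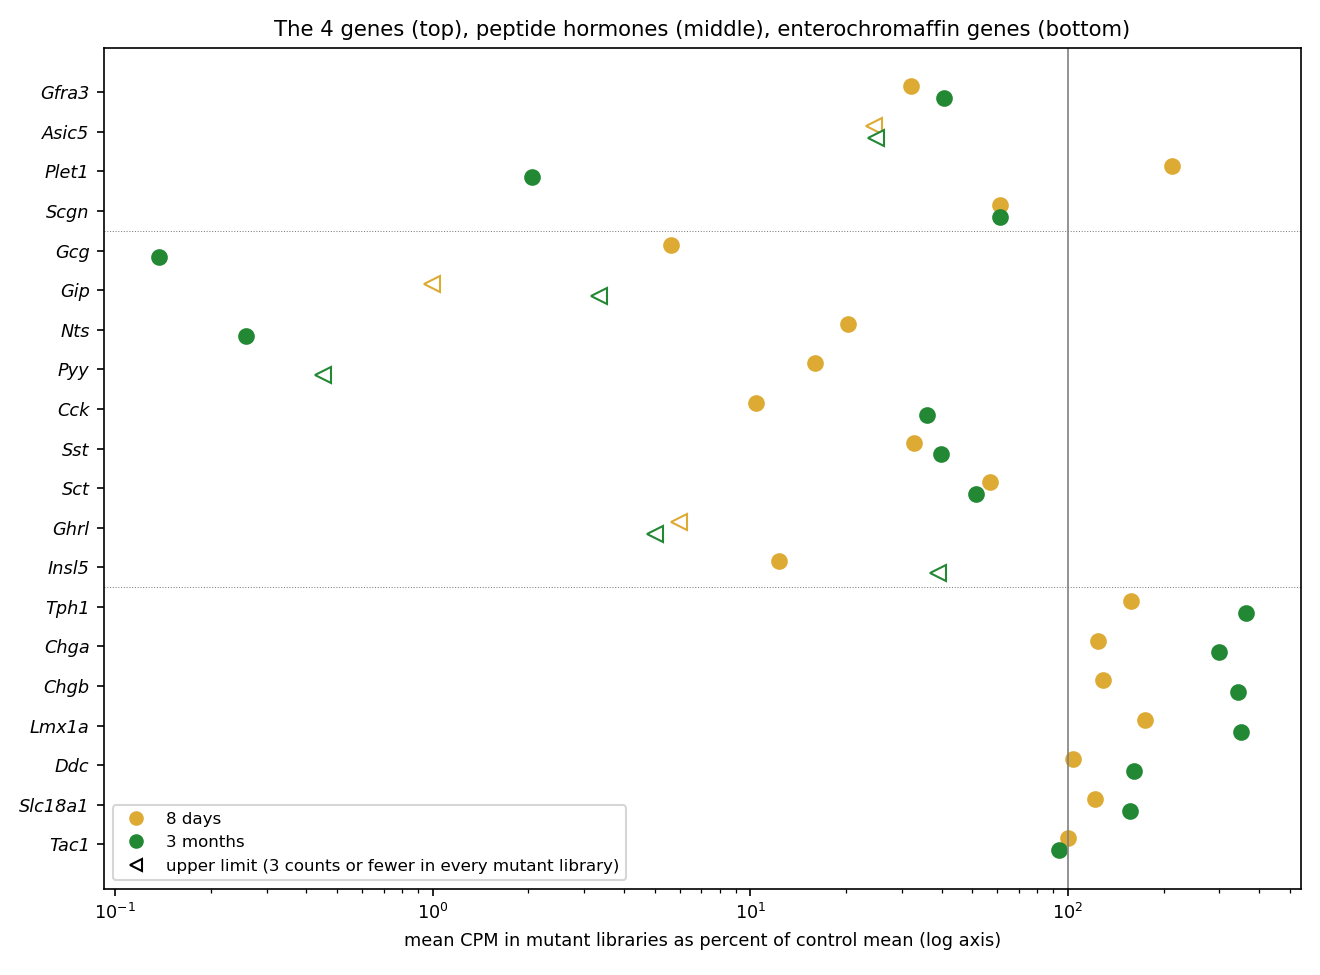
Mean CPM in mutant libraries as percent of the control mean (log axis), at 8 days (yellow) and 3 months (green), for the 4 genes, 9 peptide hormones and 7 enterochromaffin genes; open triangles are upper limits from a floor of 3 counts. Gfra3 and Scgn sit with Sst and Sct between 32.1% and 61.0%, and Plet1 spans 212% (88.7% without both libraries with high counts of large-intestine genes) to 2.06%.

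The controls of both times were also set side by side, as a description, since the choice of the genes used these control levels and Plet1 met it through its high 3-month controls. For Plet1, all 4 controls at 3 months were above all 3 at 8 days, 9.00 to 177 CPM against 1.31 to 6.18 CPM. Its log2 fold change between controls, 3 months over 8 days, was 5.03 (SE 0.99), or 32.7-fold, and 4.18 to 6.15 over the alternatives tried. For the other genes the differences were small beside it, with -0.38 (SE 0.21) for Gfra3, 0.30 (SE 0.35) for Asic5 and -0.15 (SE 0.16) for Scgn, and their control ranges overlapped between the times. Counts of each time came as a table of their own, and the effects of elapsed time, age and any difference in handling cannot be told apart.

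Within the 3-month controls, 2 Rfx6f/+ libraries could be tested against 2 Rfx6f/f libraries, a contrast that the choice of the genes did not use. The fit also held the 3-month mutants as their own group, so its SE, intervals and p-values draw on their spread too. For Plet1, the 2 Rfx6f/f libraries were at 112 and 9.00 CPM, while the mutants had an SD of 0.677 CPM. No gene was called among 17780 tested (0.00%) by edgeR, with 1220 at an unadjusted p under 0.05, and DESeq2 called 48. The log2 difference of Plet1 was 1.37 (SE 0.85, interval -0.58 to 3.31, adjusted p = 0.778), and without control replicate 1 it was 4.12, without control replicate 4 it was 0.49. For the other genes it was -0.13 for Gfra3 (interval -1.09 to 0.83), -0.15 for Asic5 (interval -1.29 to 0.99) and -0.16 for Scgn (interval -0.62 to 0.31), with adjusted p of 0.958, 0.957 and 0.897. These intervals do not show that the control genotypes are alike for the 4 genes.

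**Figure D3:**
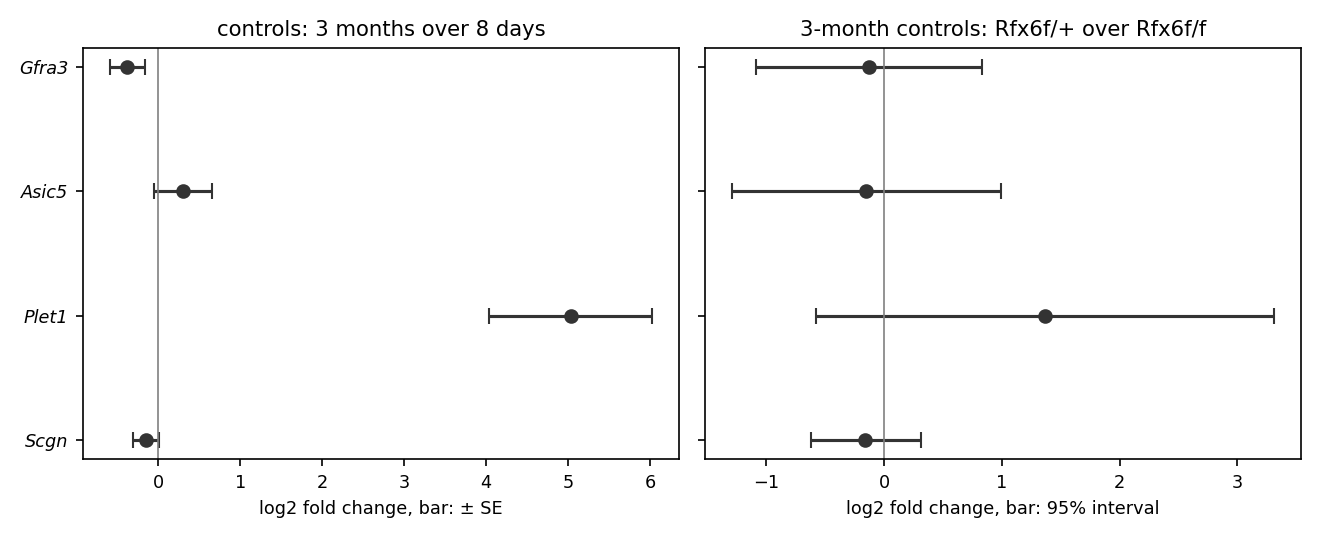
Log2 fold change of the 4 genes between control groups: 3 months over 8 days on the left, with bars of ± SE and as a description, and Rfx6f/+ over Rfx6f/f at 3 months on the right, with bars of the 95% interval. Plet1 stands apart on the left at 5.03, and all 4 intervals on the right cross 0.

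The GDNF family list held 11 ligands and receptors besides Gfra3, of which 9 were tested. At 8 days 0 of 9 were called by edgeR (2 at an unadjusted p under 0.05, and 0 by DESeq2) and at 3 months 1 of 9, the cell adhesion molecule Ncam1, an alternative partner of GDNF co-receptors, rose by 0.66 on the log2 scale (SE 0.12, adjusted p = 0.0192). The ligand of Gfra3, Artn (artemin), had log2 fold changes of 0.03 (SE 0.26) and 0.14 (SE 0.26). Among the other acid-sensing and epithelial sodium channels, edgeR called 0 of 5 tested at 8 days (0 at an unadjusted p under 0.05, and 0 by DESeq2) and 1 of 3 at 3 months, where Scnn1a, a subunit of the epithelial sodium channel, rose by 0.56 on the log2 scale (SE 0.12, adjusted p = 0.0261). Of the bile acid sensors, which share a ligand class with Asic5, edgeR called 0 of 6 at 8 days (3 at an unadjusted p under 0.05, and 1 called by DESeq2) and 0 of 5 at 3 months (1 at an unadjusted p under 0.05, and 0 by DESeq2). Of the EF-hand calcium buffers and sensors akin to Scgn, edgeR called 0 of 10 at each time, with 0 at an unadjusted p under 0.05 and 0 by DESeq2 at 8 days, and 1 of each at 3 months.

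Over these 4 lists, 0 of 30 tested genes were called at 8 days, with 5 at an unadjusted p under 0.05 and 1 called by DESeq2. Over all genes tested at 8 days, 0.0343% were called higher and 0.0572% lower. At 3 months 2 of 27 were called higher and 0 lower by edgeR, with 7 at an unadjusted p under 0.05 and 3 called by DESeq2, against 4.96% of all genes called higher and 4.32% lower. Shares this near the background are no result about the lists. The median log2 fold change over the 4 lists was 0.01 at 8 days and 0.14 at 3 months, beside -0.00 and 0.01 over all genes. Between the control groups, 10 of 28 list genes were called lower and 1 higher at 3 months than at 8 days by edgeR, beside 23.0% of 17243 genes called lower and 24.1% called higher, with a median of -0.32 beside 0.02 over all genes. The lower ones included Ret, the signalling receptor of the family (log2 fold change -0.89), and the calcium buffer S100g (-3.10), both named after their values were seen.

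The genes whose pattern over the 15 libraries lay nearest to each of the 4 were found by the root mean square difference in log2 CPM, after subtracting the control mean of the same time. They were taken from 202 to 693 genes that were also at least 0.5 log2 units lower in mutants at the time when the gene in question fell most, so their direction is fixed by that choice. Nearest to Gfra3 were Abcc8, the sulfonylurea receptor of the ATP-sensitive potassium channel, at 0.41, Sct at 0.52 and Sst at 0.53. Abcc8 had 4.35 to 4.69 CPM in the controls and 1.89 to 2.01 CPM in the mutants at 8 days, with no overlap. Nearest to Asic5 were Pax6 at 0.71 and Isl1 at 0.74, transcription factors of endocrine cells, and Cck at 0.76. Because Asic5 is at 0 in every mutant, its mutant values on this scale are set by the prior count of 2, and with a prior count of 0.5 its nearest genes were Ghrl (ghrelin), Isl1 and Cck, so that the order here depends on that choice. Isl1 had 1.12 to 1.39 CPM in the controls and 0 to 0.0648 CPM in the mutants at 8 days.

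Nearest to Scgn were the carboxylesterase gene Ces1e at 0.19, Vwa5b2 at 0.22 and Tppp, a tubulin polymerization-promoting protein gene, at 0.24, while with a prior count of 0.5 Sct took the place of Tppp. Among the 4 genes themselves, Gfra3 and Scgn were closest at 0.62, Gfra3 and Asic5 differed by 1.06 and Asic5 and Scgn by 1.53. Plet1 was far from each of them, by 2.39 from Asic5, 2.53 from Gfra3 and 2.67 from Scgn. Its own 3 nearest genes were the ubiquitin-like modifier Ubd at 1.79, Ifit1bl1 at 1.85 and the immunity-related GTPase Igtp at 1.90, each known to be induced by interferon. The next was the keratin gene Krt84 at 1.91, named after its value was seen, which took the place of Igtp with a prior count of 0.5. Mean Ubd was 5.84 and 7.47 CPM in controls and mutants at 8 days, and 76.8 and 16.2 CPM at 3 months. Mean Igtp was 22.1 and 21.0 CPM at 8 days, and 132 and 23.2 CPM at 3 months, so that both were high in the same group as Plet1.

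**Figure D4:**
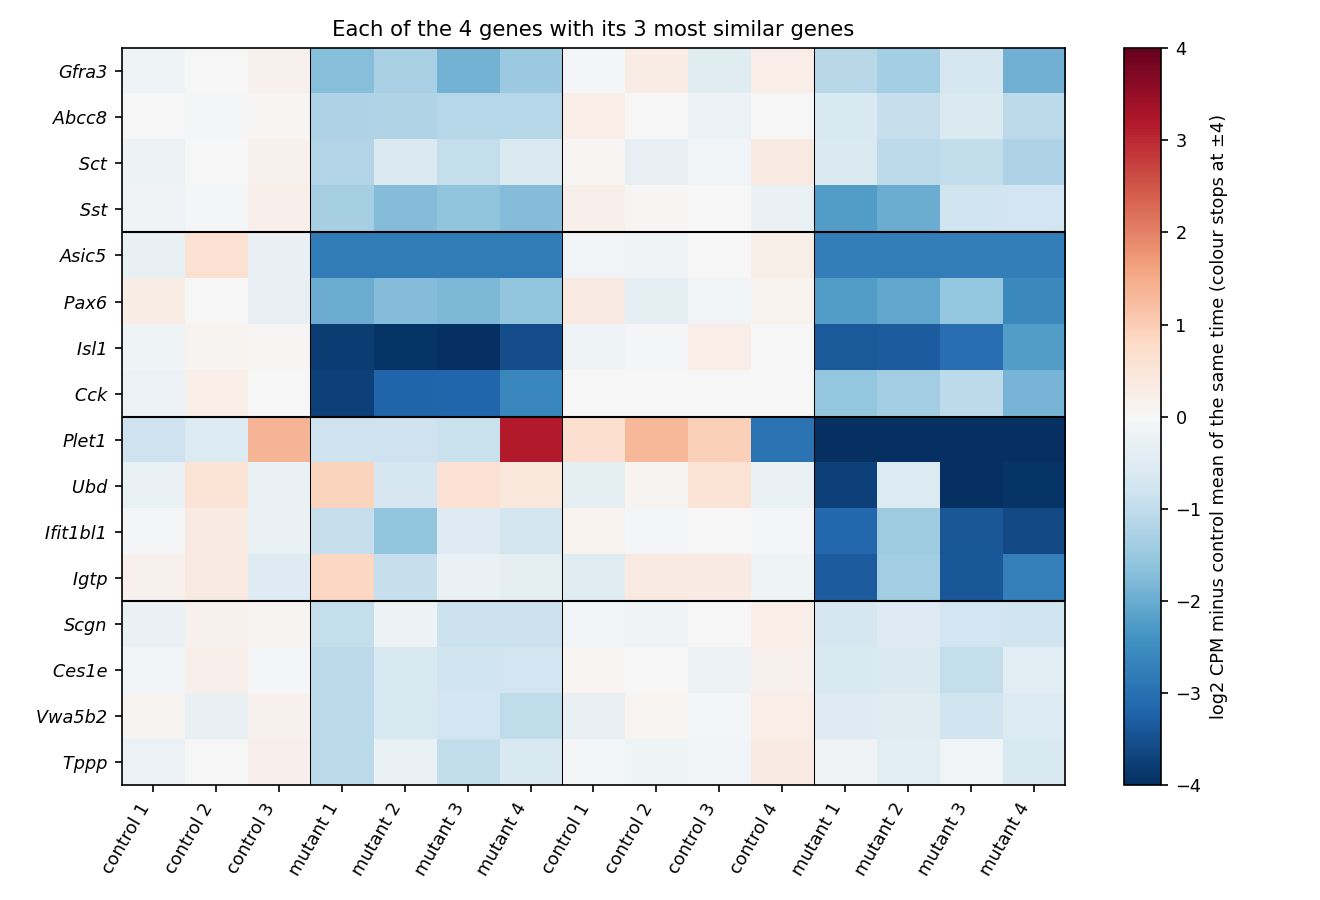
Log2 CPM minus the control mean of the same time (colour, stopping at ±4) for each of the 4 genes and its 3 most similar genes, in the 7 libraries of 8 days followed by the 8 of 3 months. Gfra3 and Scgn are pale blue in most mutant columns, Asic5 is the same blue in all 8, and Plet1 has 1 red mutant column at 8 days and 1 blue control column at 3 months.

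Values of other genes moved with Plet1. At 8 days, the summed CPM of 5 large-intestine genes (Car1, Aqp8, Hoxa13, Hoxb13 and Hoxd13, a list chosen after values were seen) was 0.770, 3.72 and 168 for the controls, against 0.0677, 0.0587, 1.19 and 468 for the mutants. The high libraries, control replicate 3 and mutant replicate 4, were those with 6.18 and 21.8 CPM of Plet1. Car1, a carbonic anhydrase of the colon, made up 162 and 433 CPM of those sums, and Hoxa13, a marker of the hindgut, was at 0.111 and 0.940 CPM. The other hindgut genes of the list were not raised there, with 0 and 1 counts of Hoxb13 and 0 counts of Hoxd13 in both libraries. At 3 months the sum ran from 0.351 to 1.67 over all 8 libraries, and the highest, 1.67, was in control replicate 3. Whether it accounts for the Plet1 counts at 8 days was not tested. In mutant replicate 4, Gfra3 and Scgn had 0.810 and 1.94 CPM, within the range of the other mutants. In control replicate 3 they had 2.60 and 3.90 CPM, where Gfra3 was the highest of the 3 controls and Scgn lay between the others.

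At 3 months the summed CPM of 8 detected genes of 9 listed interferon-gamma induced genes, chosen after values were seen, was 999, 1183, 1115 and 1137 for the controls, against 401, 631, 362 and 473 for the mutants. At 8 days it was 387 to 536 in the controls and 371 to 565 in the mutants. The sum was thus high in all 4 of the later controls, including replicate 4, where Plet1 was at 9.00 CPM. Its part in the Plet1 difference was not tested.

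**Figure D5:**
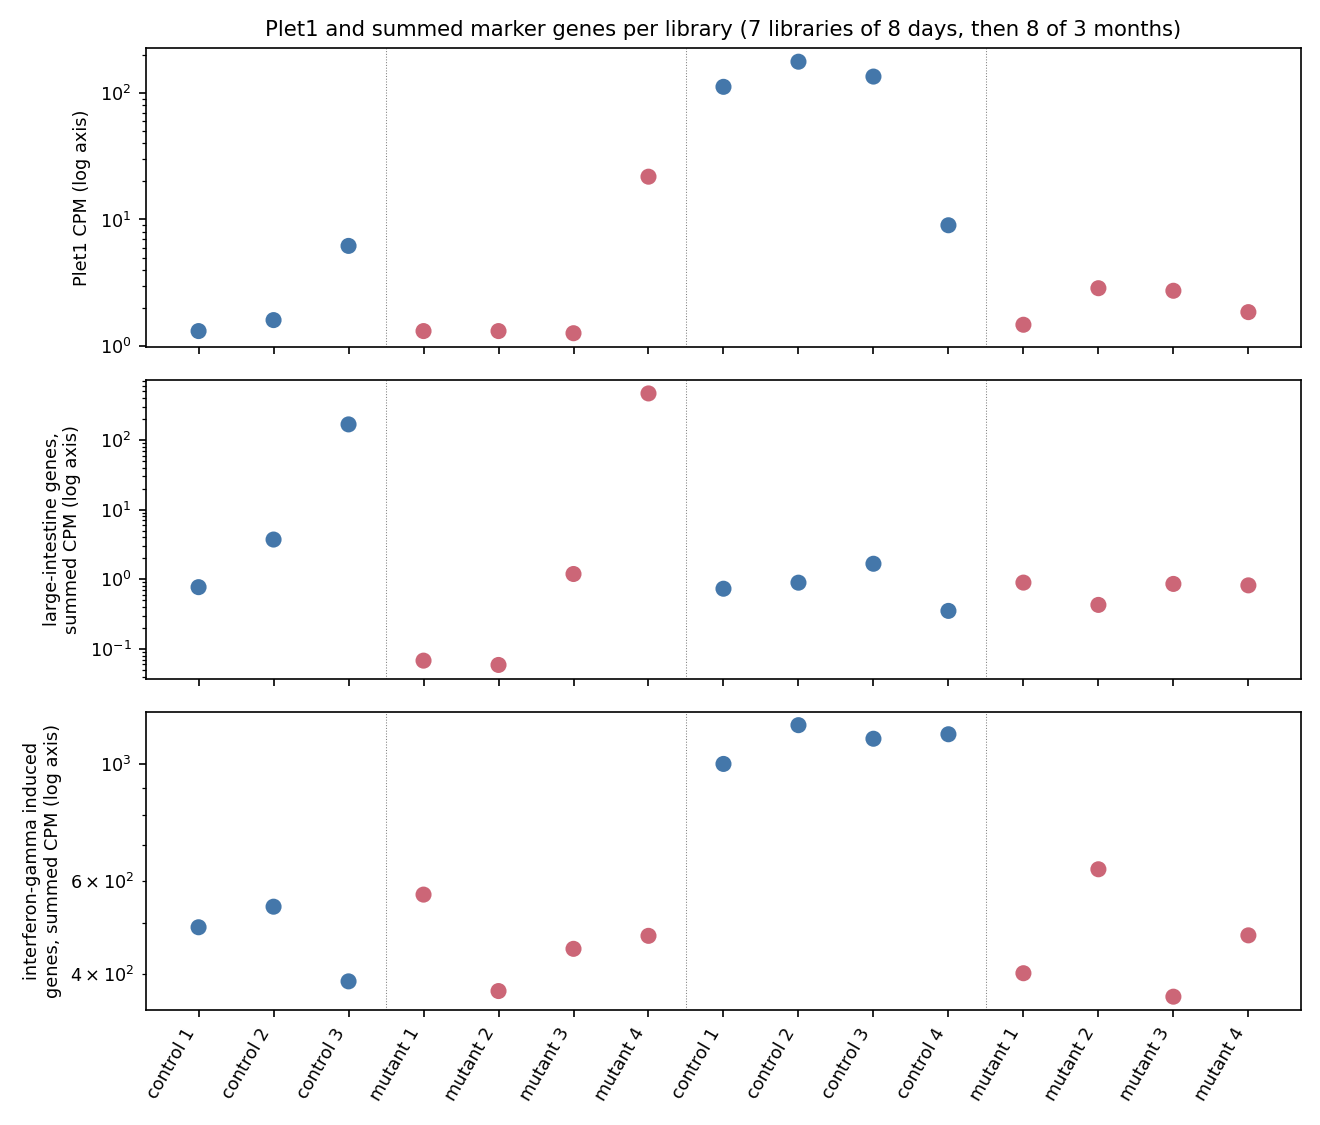
Plet1 CPM (top), summed CPM of the large-intestine genes (middle) and of the interferon-gamma induced genes (bottom) in each library, on log axes, with controls in blue and mutants in red. The high libraries at 8 days are the same in the top and middle panels, at 168 and 468 summed CPM, and the later controls stand at 999 to 1183 in the bottom panel.

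Markers of other cells that could carry the genes were summed in the same way, and all listed markers were detected. The 6 markers of M cells and follicle-associated epithelium, summed to 81.8 to 94.3 CPM in the controls and 94.4 to 157 in the mutants at 8 days, and to 112 to 142 and 94.8 to 136 at 3 months. The 7 dendritic cell markers summed to 42.1 to 49.1 and 42.6 to 60.7 CPM at 8 days, and to 53.1 to 61.4 and 49.3 to 62.2 at 3 months. Of these 7, edgeR called 0 at 8 days (3 at an unadjusted p under 0.05, and 0 by DESeq2). At 3 months it called 1 higher, Clec9a, and 0 lower (3 at an unadjusted p under 0.05, and 2 by DESeq2), beside 4.96% of all genes called higher. At 8 days the M cell sums did not overlap, with the mutants above the controls, but the nearest were 94.4 and 94.3 CPM. Of these 6 markers edgeR called 0 at 8 days, with 3 at an unadjusted p under 0.05 and 1 called by DESeq2. The 5 T cell markers summed to 22.9 to 34.3 and 26.0 to 45.6 CPM at 8 days. At 3 months they summed to 53.7 to 66.0 CPM in the controls and 24.4 to 45.9 in the mutants, without overlap, and edgeR called 3 of 5 lower (Cd3d, Cd8a and Trac), beside 4.32% of all genes tested, in the direction of Plet1. Their part in the Plet1 difference was not tested. The 6 B cell markers summed to 14.8 to 44.3 CPM in the controls and 17.7 to 243 in the mutants at 8 days, where edgeR called 0 of 6, with 6 at an unadjusted p under 0.05, as were 1540 of 17493 genes over the whole fit, and 0 called by DESeq2. At 3 months their sums went the other way, 89.3 to 199 CPM in the controls and 11.9 to 131 in the mutants, with overlap. For Gfra3, which nerve cells also express, the 10 enteric neuron markers summed to 53.7 to 76.2 CPM in controls and 51.3 to 69.5 in mutants at 8 days, and to 51.6 to 55.7 and 50.5 to 75.6 at 3 months. The 4 enteric glia markers lay between 3.79 and 8.62 CPM in every library, and control and mutant ranges of both nerve lists overlapped at each time.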

How the data were processed

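Total RNA of 15 ileum samples was sequenced after ribosomal RNA removal, per the labels' protocols (the molecule label reads polyA). The deposited tables hold whole-number read counts for each Ensembl identifier, not normalized. Per the submitters' processing notes the tools named are bcl2fastq 2.17.1.14, Bowtie 1.0.0, TopHat2 2.0.10, Bowtie2 2.1.0 and HTSeq 0.6.1, with build mm9, and their roles are not given in the sources used here. RNA was extracted by either of 2 kits, and which sample had which is not stated in the labels. Of 37620 identifiers, 32897 (87.45%) matched a symbol in GENCODE M21, which was used for names and exon lengths; the rest held 0.675% of counts. No coordinates of the counted genes are given.

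Counts were fitted with edgeR 4.0.16 in R 4.3.3 (TMM, filterByExpr with a minimum count of 10, quasi-likelihood F test, Benjamini-Hochberg adjusted p under 0.05), separately for 4 comparisons: mutant against control at 8 days and at 3 months, controls over time, and Rfx6f/+ against Rfx6f/f controls. The fit of the last comparison also held the 3-month mutants as their own group. SE is the log2 fold change divided by the square root of F. Log2 CPM used a prior count of 2. Alternatives were DESeq2 1.42.0, other size factors, other filters, 1 joint fit, Rfx6f/f controls alone and leaving out each library. Nearest patterns were also computed with a prior count of 0.5, and 8-day means without both libraries with high counts of large-intestine genes, both chosen after seeing the data. The fits were tested on simulated counts. No pair of replicates was close enough to be 1 library deposited more than once (lowest chi-square per degree of freedom 12.1).

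The 4 genes and all gene lists were chosen with earlier results of these data known. The text names the 4 genes, Rfx6, called genes of the pathway and family lists (at most 5 a list), and the 3 genes nearest in pattern to each of the 4, among genes whose mean log2 CPM was 0 or more in each control group; others named are marked. Promoter sequences are from RefSeq. Amino acid sequences were not used here.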

Additional observations from a re-analysis of the deposited data

Results flagged for a closer look

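Single libraries stood apart from the rest of their group for 2 genes, by Dixon's test at the 95% level on groups of 4. Plet1 was at 21.8 CPM in mutant replicate 4 at 8 days, with the other mutants at 1.26 to 1.31 CPM; this is the library with 468 summed CPM of large-intestine genes. Scgn was at 3.11 CPM in mutant replicate 2 at 8 days, with the other mutants at 1.83 to 1.94 CPM, and without that library its log2 fold change was -0.92 in place of -0.71. Chance marks about 1 in 20 groups, and 10 groups were looked at.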

How the results depend on the processing

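Gfra3 and Scgn kept their direction against controls under each alternative run at both times: -1.76 to -1.54 and -0.92 to -0.60 at 8 days, -1.55 to -1.09 and -0.79 to -0.62 at 3 months. Both were chosen as lower in these same libraries, so a kept direction is close to fixed by that choice. Plet1 at 3 months ran from -5.97 to -4.75. A filter of 10 counts in more libraries left Asic5 untested. Counts of called genes moved more, and the cause was not tested. The count at 8 days was 16. It was 178 with DESeq2, 27 without a filter and 25 in 1 fit of 15 libraries. Without both libraries with high counts of large-intestine genes (chosen after seeing the data) it was 3. With 1 library left out it ran from 8 (without control replicate 1) to 200 (without mutant replicate 1). The 3-month count of 1586 was 2983 with DESeq2, 36 with Rfx6f/f controls alone, where fewer samples were fitted, and 391 (without control replicate 3) to 1521 (without control replicate 4) with 1 library left out. Controls over time gave 8122 calls, 5117 with Rfx6f/f controls alone. Between control genotypes there were 0 calls, 48 with DESeq2 and 0 to 2 with 1 library left out (2 without control replicate 4). There the small differences changed sign as libraries were left out: Gfra3 -0.59 to 0.22, Asic5 -0.32 to 0.07, Scgn -0.32 to 0.06. No paired analysis was possible because the labels link no mutant library to a control library. The replicate numbers used here only name the libraries. Depth limits Asic5 most, at 7 to 17 counts per control.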
